A study of Mus musculus with 6 samples.

Results

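The 33 genes described here are factors of ribosome biogenesis and other known targets of the transcription factor MYC, and they were measured among 18193 genes in splenic B cells of 6 mice. They were taken from a list of gene symbols through the array's annotation, and each of the 33 had at least 1 probe set assigned to its symbol alone. Where a symbol had several probe sets, the brightest one on average over the 6 arrays stands for the gene. The mice formed a group of 3 labelled CBPF/F x EµBcl2, in which Crebbp, the gene of the histone acetyltransferase CBP, carried flanking recombination sites (Crebbp-floxed), and a group of 3 labelled CBPΔ/Δ x EµBcl2, in which it was deleted (Crebbp-deleted). Both groups carried the Bcl2 transgene under the Eµ enhancer, which is active in B cells, so the controls over-express this survival gene too. Which Cre line deleted Crebbp, and the ages of the mice, are not given in the sources used here. The spleen cells had been frozen alive, and after thawing the B cells were purified by removing cells that carry CD43. The comparison addressed how B cells with the transgene differ when Crebbp is lost, and the MYC targets bear on it through the level of Myc. Levels are log2 intensities, differences are Crebbp-deleted minus Crebbp-floxed on the log2 scale, and a change was called at a limma adjusted p under 0.05 over all 18193 genes.

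MYC binds DNA together with MAX at E-boxes and is best known in lymphocytes for raising cell growth. Its targets include the machinery that builds ribosomes. In the nucleolus RNA polymerase I transcribes the ribosomal RNA precursor, small nucleolar ribonucleoproteins (snoRNPs) guide its methylation and pseudouridylation, and assembly factors cleave and fold it into the small and the large subunit. Other classical targets make polyamines and pyrimidines, which growing cells need for RNA.

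Array medians lay between 4.27 and 4.30, and precision is limited by how few arrays there are. Crebbp stood lower in each deleted sample, with levels of 10.04, 9.87 and 9.95 in floxed samples 1 to 3 and of 9.59, 9.41 and 9.35 in deleted samples 1 to 3 (log2 difference −0.50 ± 0.10 SE, limma adjusted p = 0.078). Its other 3 probe sets differed by −0.53, −0.79 and −0.97, also with no overlap, and of the 4 that at −0.79 passed over all probe sets (limma adjusted p = 0.027). Of 12 measured B cell markers 10 had a negative difference, and their mean levels ran from 6.92 to 12.55, so the labelled cell type was present. Their summed intensity was 31100 to 36400 in the floxed and 25800 to 27400 in the deleted samples. In 5 of the 12 all deleted levels were below the floxed, as in 10% of all genes. Cd79a was called lower (−1.11, limma adjusted p = 0.0093), as were 0.236% of all genes. Plasma cells and many macrophages carry CD43, so the depletion is aimed at such cells too. The summed intensity of 13 plasma cell markers was 7520 to 8990 in the floxed and 13900 to 23600 in the deleted samples, and that of 14 macrophage markers 494 to 1660 and 1510 to 3740. Of these 12 and 14 respectively had a positive difference. Mean levels ran from 4.15 to 11.89 in the plasma cell list and from 3.88 to 8.60 in the macrophage list. The dimmest of each list lay below 4.29, the median of probe set means. By their Xist and Y-linked transcripts 3 mice were male, namely those of floxed sample 1, deleted sample 1 and deleted sample 3, so the sexes were unequal between the groups. In bulk samples fewer cells of a type and less RNA per cell cannot be told apart.

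Myc was higher in every deleted sample. Its levels were 10.28, 9.73 and 10.10 in floxed samples 1, 2 and 3 and 11.16, 11.17 and 10.98 in deleted samples 1, 2 and 3. The groups did not overlap, and the floxed samples were spread more widely than the deleted ones. The group means were 10.04 ± 0.28 and 11.10 ± 0.11 (SD, n = 3 each), a log2 difference of 1.07 ± 0.15 (SE) or 2.10-fold (limma adjusted p = 0.032). The call did not hold in several other fits: the limma adjusted p was 0.083 with sex as a term, 0.054 with an offset of 16 added to the intensities, 0.071 without floxed sample 1, and 0.142, 0.098 and 0.072 without deleted samples 1, 2 and 3, with differences from 1.03 to 1.19. Only 1 probe set named Myc alone, so its change rests on that probe set.

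None of the 33 MYC targets passed the test in either direction, where limma called 0.781% of all genes (0.544% higher and 0.236% lower in the deleted samples). At an unadjusted p under 0.05 limma had 1 member, Pes1, which was lower, or 3.03% of the 33. The background was 14.8% of all genes, 7.96% higher and 6.84% lower. In 3 members, or 9.09%, the groups did not overlap, against 21.2% of all genes. In each of these the deleted samples were the lower ones, as in 10% of all genes, where 11.2% had higher deleted samples. The differences ran from −0.33 to 0.24 with a median of −0.015, beside a median of 0.013 over all genes. Of the 33 differences 23 were smaller than 0.1 in size, 28 were smaller than 0.2, and 21 (63.6%) were negative, where 46.6% of all genes had a negative difference. Among the 7304 genes whose mean level lay within the members' range, 5.95 to 12.14, the median difference was −0.008 and 51.5% were negative. In 29% of these genes the groups did not overlap. Limma called 0.958% of them, and 21% had an unadjusted p under 0.05.

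A test that is not passed does not show that a level stayed the same, and the intervals give the sizes these data leave possible. The 95% intervals of the 33 differences had upper limits between −0.018 (Pes1) and 0.71 (Srm), the next highest being 0.44 (Nop16). The interval of Myc began at 0.72, so the upper limit of each of the 33 members lay below it, that of Srm only just. This did not hold for Srm in 10 of 15 alternative fits, where its limit was 0.71 to 0.89 and reached that of Myc, while without deleted sample 3 the highest limit of any member was 0.42. The difference between Myc and a member was itself not tested. The plot of group differences shows these intervals beside that of Myc.

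**Figure D1:**
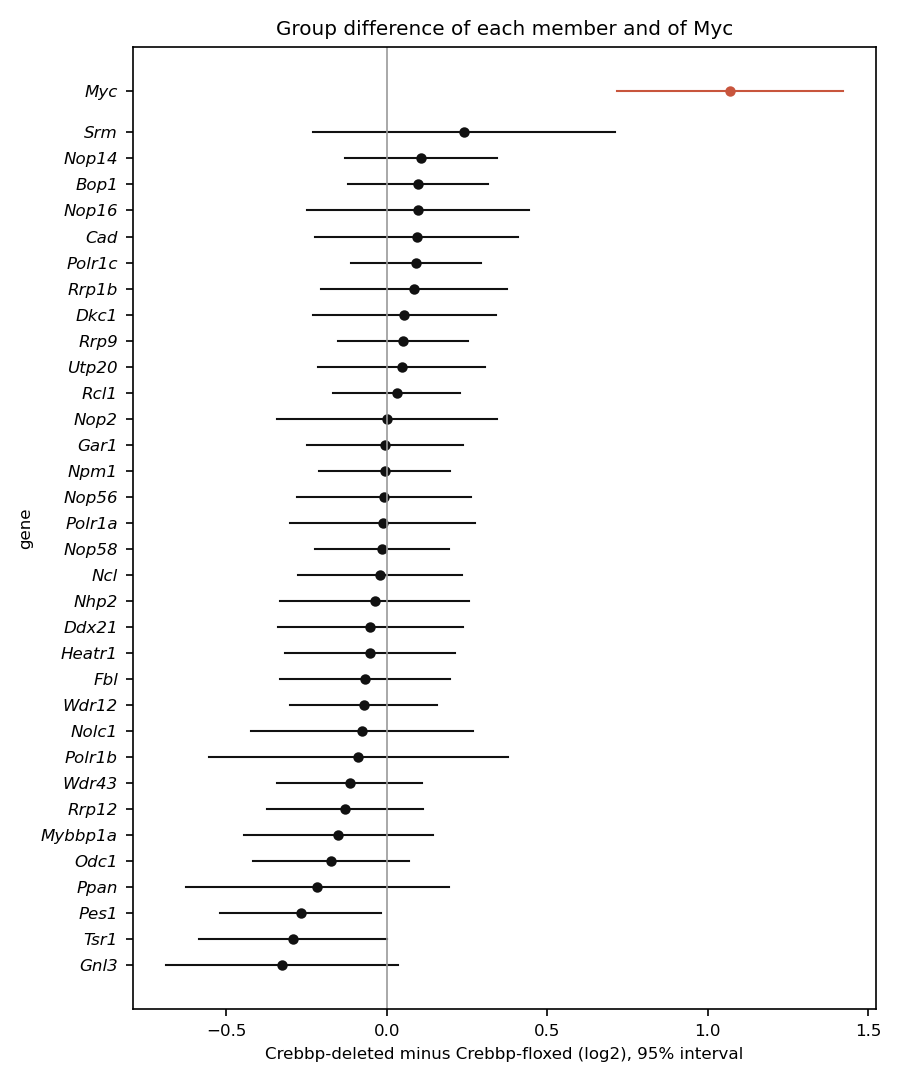
Difference between Crebbp-deleted and Crebbp-floxed samples for each of the 33 members and for Myc, in log2 units on the horizontal axis; points are limma estimates from 3 and 3 arrays and lines are 95% intervals. The members lie between −0.33 (Gnl3) and 0.24 (Srm) and Myc lies at 1.07.

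The nucleolar chaperones and organisers held the brightest members, Npm1 and Ncl, while Gnl3 and Nolc1 averaged 8.80 and 7.80 over all arrays. Npm1, the histone and ribosomal protein chaperone nucleophosmin, had levels of 12.22, 12.12 and 12.08 in floxed samples 1 to 3 and of 12.19, 12.09 and 12.12 in deleted samples 1 to 3. The groups overlapped almost fully (difference −0.006, 95% interval −0.21 to 0.20). Ncl, the RNA-binding protein nucleolin, differed by −0.021 (−0.28 to 0.24) and Nolc1, a phosphoprotein that binds snoRNPs, by −0.076. The group's largest difference was that of Gnl3, the nucleolar GTPase nucleostemin. Gnl3 stood at 9.29, 8.72 and 8.89 in the floxed and at 8.60, 8.56 and 8.77 in the deleted samples. Floxed sample 1 was far above the rest, and floxed sample 2 lay within the deleted range. The difference was −0.33 ± 0.15 (SE) and did not pass (limma adjusted p = 0.378). Leaving out floxed sample 1 gave −0.16, smaller in size than those of Srm (0.36) and Pes1 (−0.21).

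Transcripts of the snoRNP proteins that modify ribosomal RNA had differences from −0.067 to 0.054. Their 95% intervals reached from −0.33 to 0.34. Fbl, the methyltransferase fibrillarin of the box C/D particles, had levels of 10.34, 10.01 and 10.14 in the floxed and of 10.07, 10.01 and 10.20 in the deleted samples, which overlapped. Its difference of −0.067 (95% interval −0.33 to 0.20) was the largest of the 3 box C/D members, and the core proteins Nop56 and Nop58 differed by −0.008 and −0.015. Among the box H/ACA proteins, Dkc1, the pseudouridine synthase dyskerin, had levels of 9.50, 9.49 and 9.26 in the floxed and of 9.43, 9.32 and 9.66 in the deleted samples. Deleted sample 3 was highest and floxed sample 3 lowest, so the groups overlapped (difference 0.054). Its partners Nhp2 and Gar1 differed by −0.038 and −0.005. None of these 6 passed, with limma adjusted p between 0.840 and 0.988.

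Of the 6 genes of ribosomal DNA transcription 5 had a negative difference, and none passed. Mybbp1a, a nucleolar protein that binds MYB, had levels of 10.10, 9.79 and 9.75 in the floxed and of 9.65, 9.65 and 9.89 in the deleted samples. Deleted sample 3 lay above floxed samples 2 and 3, and the difference was −0.15 ± 0.13 (SE, limma adjusted p = 0.641). The catalytic subunits of RNA polymerase I, Polr1a and Polr1b, differed by −0.013 and −0.089. Polr1c, a subunit shared with RNA polymerase III, was the member of this group with a positive difference. It had levels of 7.62, 7.49 and 7.54 in the floxed and of 7.61, 7.61 and 7.71 in the deleted samples, where floxed sample 1 fell inside the deleted range (0.090, limma adjusted p = 0.690). The RNA helicase Ddx21 and Heatr1, which supports transcription by RNA polymerase I, differed by −0.051 and −0.052.

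Factors of the small subunit were divided, with 3 of 7 differences negative. Tsr1, a late assembly factor of the small subunit, had levels of 8.90, 8.56 and 8.50 in the floxed and of 8.28, 8.39 and 8.42 in the deleted samples. The groups did not overlap, the deleted being lower, though floxed sample 3 and deleted sample 3 were close. The difference was −0.29 ± 0.13 (SE) and did not pass (limma adjusted p = 0.340). Wdr43, a component of the small subunit processome, stood at 8.79, 8.59 and 8.57 in the floxed and at 8.47, 8.56 and 8.57 in the deleted samples. It was separated by less than 0.01, with a difference of −0.12 ± 0.10 (SE, limma adjusted p = 0.639). Rrp12, which helps to export the subunits, had levels of 6.34, 6.17 and 6.16 in the floxed and of 5.99, 6.06 and 6.22 in the deleted samples (−0.13, limma adjusted p = 0.620). Deleted sample 3 lay among the floxed samples there. Nop14 had the largest positive difference of the group, with levels of 7.38, 7.38 and 7.37 in the floxed and of 7.31, 7.59 and 7.55 in the deleted samples (0.11, limma adjusted p = 0.688). Deleted sample 1 was its lowest. The processome proteins Utp20, Rrp9 and Rcl1 differed by 0.046, 0.052 and 0.031.

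Factors of the large subunit held the member with the smallest p. Pes1, which forms the PeBoW complex with Bop1 and Wdr12, had levels of 8.74, 8.50 and 8.63 in the floxed and of 8.32, 8.26 and 8.49 in the deleted samples. The groups did not overlap, with deleted sample 3 only just below floxed sample 2. The difference was −0.27 ± 0.11 (SE, limma adjusted p = 0.303, unadjusted p = 0.039). The other PeBoW proteins had smaller differences at their brightest probe sets. Bop1 had levels of 7.50, 7.47 and 7.41 in the floxed and of 7.55, 7.46 and 7.67 in the deleted samples (0.097, limma adjusted p = 0.691), and Wdr12 differed by −0.072. Whether Pes1 differed from them was not tested. Ppan, a factor of large subunit maturation, had levels of 7.65, 7.19 and 7.06 in the floxed and of 6.91, 7.04 and 7.30 in the deleted samples (−0.22, limma adjusted p = 0.624). Rrp1b stood at 7.13, 6.69 and 6.90 in the floxed and at 6.92, 7.02 and 7.02 in the deleted samples (0.086, limma adjusted p = 0.807). The groups overlapped in both genes, in Ppan through deleted sample 3 and in Rrp1b through floxed sample 1. The ribosomal RNA methyltransferase Nop2 differed by less than 0.001 and Nop16 by 0.097.

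The synthesis genes had differences of both signs. Odc1, the rate-limiting enzyme of polyamine synthesis and a textbook MYC target, had levels of 10.40, 10.18 and 10.46 in the floxed and of 10.23, 10.10 and 10.19 in the deleted samples. Deleted sample 1 lay above floxed sample 2, and the difference was −0.17 ± 0.10 (SE, limma adjusted p = 0.492). Srm, the spermidine synthase that acts downstream of Odc1, had levels of 7.95, 7.63 and 7.58 in the floxed and of 7.75, 7.72 and 8.41 in the deleted samples. Its difference of 0.24 ± 0.20 (SE) was the most positive of the 33 and came from deleted sample 3, since the other deleted samples lay within the floxed range (limma adjusted p = 0.637). Cad, which carries out the first steps of pyrimidine synthesis, differed by 0.093 and was likewise highest in deleted sample 3, at 8.03 against 7.60 to 7.81 in the other 5 samples.

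**Figure D2:**
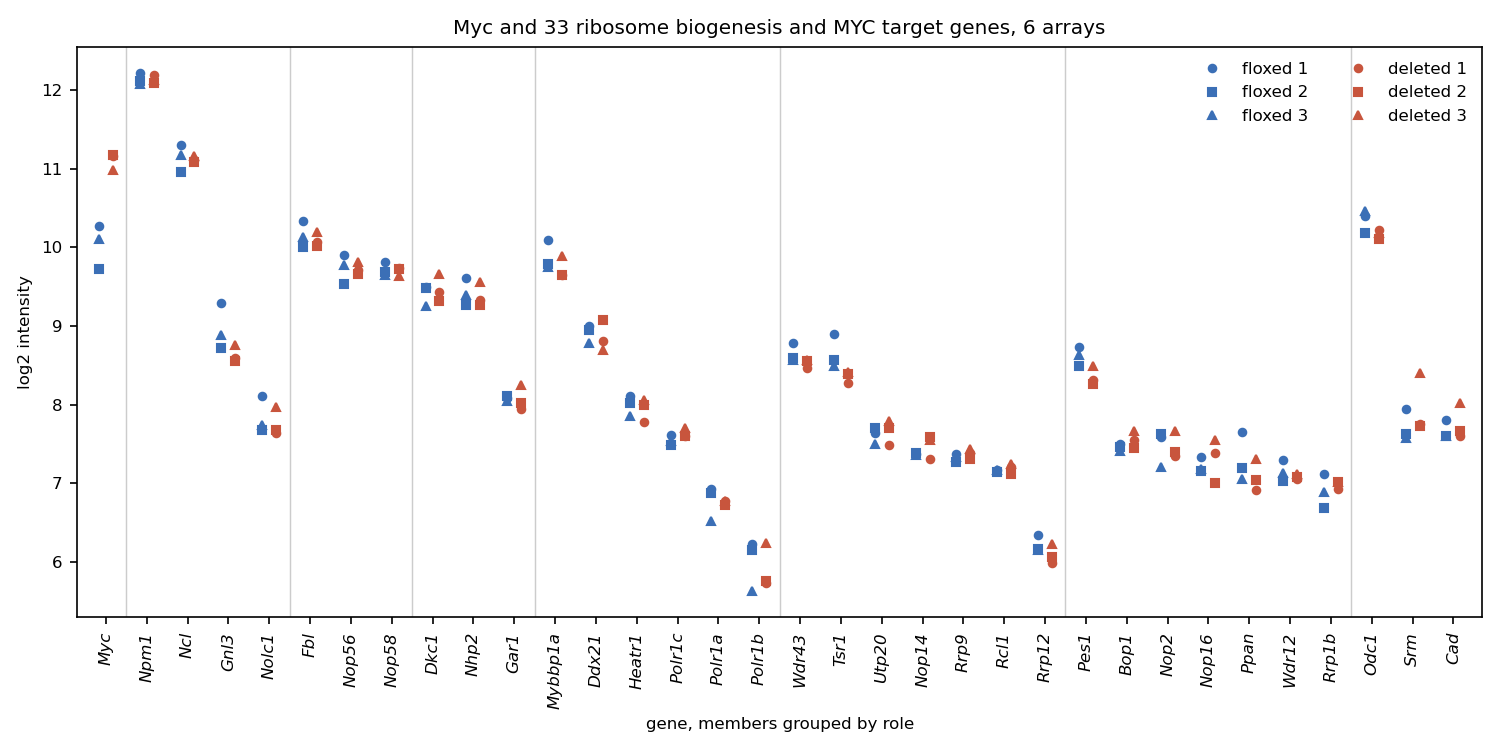
Log2 intensity of Myc and of the 33 members in each of the 6 arrays, with members grouped by role between grey lines and symbols giving the replicate number. The floxed (blue) and deleted (red) points of Myc are apart, while those of the members lie side by side from Npm1 near 12.1 to Polr1b near 6.0.

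The members' levels shifted together in single samples. All 33 lay above their floxed mean in floxed sample 1, and 23 did so in deleted sample 3, against 10 and 6 in floxed samples 2 and 3 and 11 and 7 in deleted samples 1 and 2. The median deviation from the floxed mean was 0.12 in floxed sample 1 and 0.078 in deleted sample 3. In floxed samples 2 and 3 it was −0.060 and −0.066, and in deleted samples 1 and 2 it was −0.095 and −0.072. Floxed sample 1 held the highest level of 18 members (54.5%) and deleted sample 3 that of 12 (36.4%), where 17.3% and 26.4% of all genes were highest in these samples. Averaged by group, the medians were −0.002 ± 0.107 in the floxed and −0.030 ± 0.094 in the deleted samples (SD, n = 3 each). The groups thus differed by less than the spread between samples. Since deviations are taken from the floxed mean, the floxed average lies near 0 by construction. A high floxed sample 1 likewise lowers the deviations of floxed samples 2 and 3. Without floxed sample 1 the median difference of the members was 0.038 and 22 of the 33 were positive, in place of 12, with 0 genes called in that fit and 1990 at an unadjusted p under 0.05 (limma). Without floxed sample 1 several negative differences were smaller in size, at −0.17 for Tsr1, −0.041 for Mybbp1a, −0.042 for Ppan, −0.046 for Wdr43 and −0.069 for Rrp12. Without deleted sample 3 that of Srm was 0.018. Floxed sample 1 and deleted sample 3 came from males, as did deleted sample 1. Plasma cell markers averaged 9.47 in deleted sample 3 against 7.62 to 8.47 elsewhere, and macrophage markers averaged 6.22, 4.68 and 5.22 in floxed samples 1 to 3 and 6.64, 5.96 and 7.38 in deleted samples 1 to 3. The summed intensity of erythroid markers was 191 in deleted sample 3 against 62.1 to 77.7 elsewhere. That of neutrophil markers was 681 in deleted sample 3 against 114 to 501 elsewhere. The part of sex and of these markers in the members' levels was not tested. With sex as a term 24 of the 33 differences were negative, with a median of −0.057, and 0 passed (limma).

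**Figure D3:**
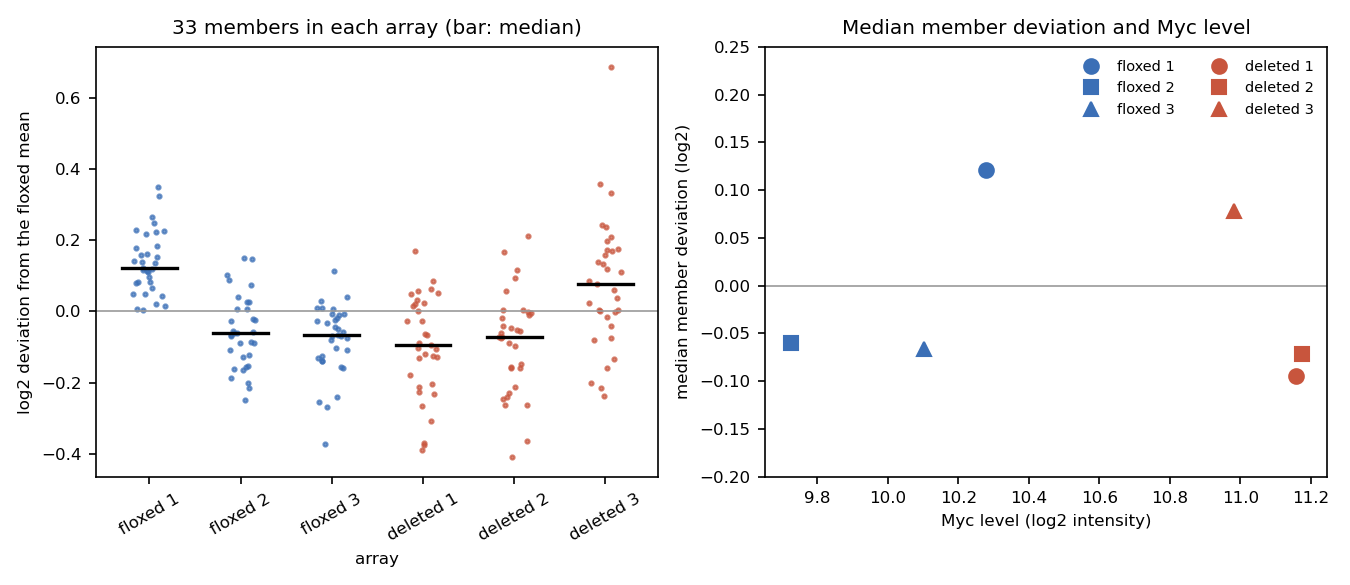
Left, the deviation of each of the 33 members from its floxed mean in each array (log2 units, points; bars are medians); right, the median deviation against the Myc level of the same array. Floxed sample 1 and deleted sample 3 have the highest medians, 0.12 and 0.078, at Myc levels of 10.28 and 10.98.

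Set against the Myc level sample by sample, the members showed no slope that passed. Each gene was regressed on the Myc level over the 6 arrays with limma, where 20 of 18192 other genes (0.11%) passed; since Myc itself separated the groups, this slope and the group difference are largely the same comparison. Of the 33 members 0 passed and 0 had an unadjusted p under 0.05, where 12% of all genes had one (5.78% with a negative and 6.2% with a positive slope). The slopes ran from −0.21 (Tsr1) to 0.20 (Srm) log2 units per log2 unit of Myc, 18 of them (54.5%) were negative where 48.6% of all genes were, and their median was −0.018 beside 0.005 over all genes. The 5 members with the smallest p were Pes1 with a slope of −0.20, Tsr1 with −0.21, Gnl3 with −0.21, Rrp1b with 0.13 and Polr1c with 0.088, and the smallest adjusted p was 0.507 (limma). With the group as a term, so that only differences in Myc within a group count, 21 of the 33 slopes were positive (63.6%, against 45% of all genes), with a median of 0.13. In that fit 0 of all genes passed, 1291 (7.1%) had an unadjusted p under 0.05 and 0 of these were members (limma). Within the groups the samples with the highest Myc were floxed sample 1, where the members were also highest, and deleted sample 2, where they were low.

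Where a gene had several probe sets, they did not always give one answer. The 33 members had 67 probe sets, of which 47 had a negative difference, and 0 passed when 34945 probe sets were tested and limma called 0.687% of them. Deleted samples were all below the floxed at 8 of the 67 and above them at 2, where 21% of all probe sets were separated (11.1% with lower deleted samples). The 2 higher ones were the second probe set of Polr1c and the dimmest of Wdr12 (0.20). Polr1c stood there at 7.46, 7.55 and 7.54 against 7.68, 7.66 and 7.68 (0.16, limma adjusted p = 0.446 over probe sets). In 10 members the probe sets differed in sign: Npm1, Odc1, Cad, Dkc1, Polr1a, Rrp1b, Wdr12, Nop16, Bop1 and Nhp2. Of the 67 probe sets 6 had a mean below 4.29, the median of probe set means. Among these were the only positive one of Wdr12 (mean 2.00) and the only negative one of Nop16 (3.37). So was the separated one of Ncl (3.00), which was lower. The widest split was in Bop1, whose dimmer probe set stood at 7.30, 6.08 and 7.04 in the floxed and at 5.90, 6.07 and 5.62 in the deleted samples (difference −0.94, limma adjusted p = 0.208 over probe sets). Floxed sample 2 was almost level with deleted sample 2 there. In Wdr12 the second brightest of 3 had levels of 5.95, 5.88 and 5.71 against 5.29, 5.23 and 5.31 (−0.57, limma adjusted p = 0.060 over probe sets), where the brighter one differed by −0.072. In Heatr1 the second brightest of 3 had levels of 6.70, 6.23 and 6.39 against 5.92, 5.95 and 5.63 (−0.61, limma adjusted p = 0.125 over probe sets). Pes1 had levels of 5.50, 5.20 and 5.16 against 5.12, 4.65 and 4.78 at its second probe set (−0.44, limma adjusted p = 0.247 over probe sets), again with no overlap. These probe sets were singled out after their values were seen, and which transcripts they read was not analysed here. Names ending in _s_at or _x_at mark probes that can also bind other transcripts.

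**Figure D4:**
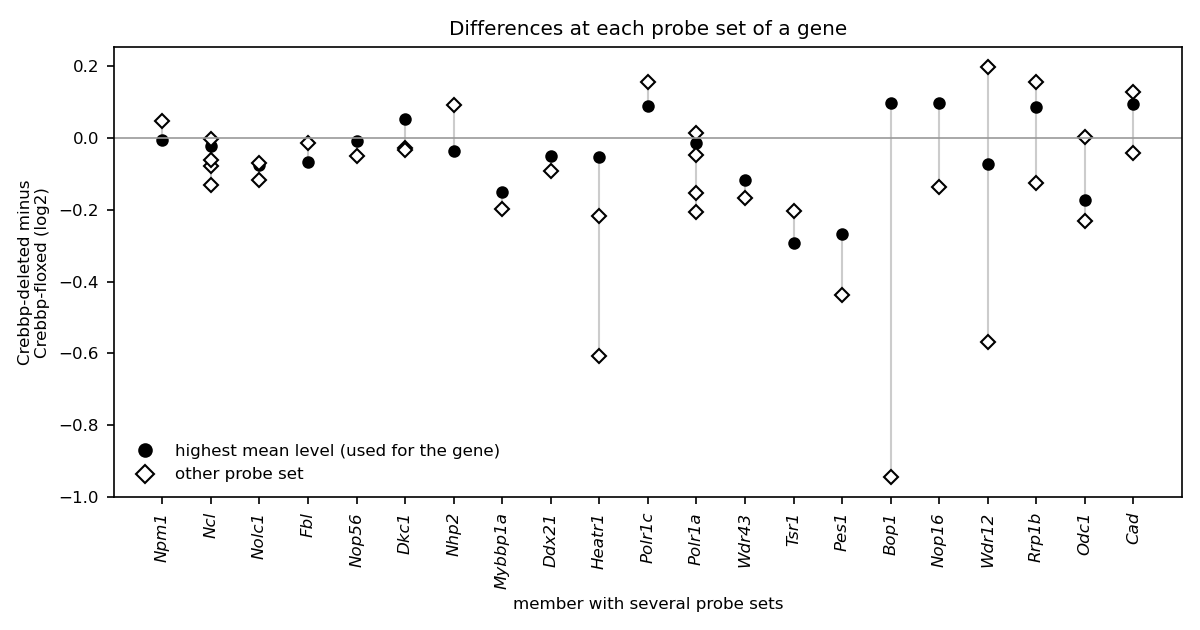
Group difference (log2, Crebbp-deleted minus Crebbp-floxed) at each probe set of the 21 members that have several; filled circles are the probe sets with the highest mean level, open diamonds the others, and grey lines join a gene's probe sets. Most genes lie within 0.2 of 0 at every probe set, and single probe sets of Bop1, Heatr1 and Wdr12 reach −0.94, −0.61 and −0.57.

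The start regions of the members were searched for the letters MYC and MAX are known to bind. RefSeq windows of build GRCm38.p6, from 250 bases before to 50 after a gene's start, were at hand for 28 of the 33 (not for Bop1, Fbl, Npm1, Rrp12 and Srm). The E-box CACGTG, which reads the same on both strands, occurred in the windows of 6 of these 28 genes (21.4%) and of 10.2% of all 14452 measured genes with a window. The variant CACGCG, searched on both strands, occurred in 9 members (32.1%, against 16.2%) and CATGTG in 6 (21.4%, against 12%), and occurrences of different motifs may share bases. The stretches of 4 genes are shown. They hold CACGTG, given in capitals, within 50 bases after the start, and their levels in every sample are given above. All 4 are among the 12 members with the smallest p, so the choice favours larger differences. Utp20 also holds the motif after the start but is not shown.
Pes1: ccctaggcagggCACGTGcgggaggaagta
Tsr1: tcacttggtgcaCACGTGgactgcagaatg
Wdr43: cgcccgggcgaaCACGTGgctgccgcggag
Mybbp1a: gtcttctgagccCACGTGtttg

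These stretches lie on the plus strand of GRCm38.p6 at chr11:3963965-3963994 for Pes1, chr11:74898092-74898121 for Tsr1, chr17:71616220-71616249 for Wdr43 and chr11:72441355-72441376 for Mybbp1a. The motif began 2 bases after the annotated start in Pes1, 24 in Tsr1, 17 in Wdr43 and 40 in Mybbp1a. At the brightest probe sets, Pes1, Tsr1 and Wdr43 are also the 3 members whose groups did not overlap. This was seen only after motifs and levels were known. At the second probe set the groups overlapped in Tsr1 (−0.20) and Wdr43 (−0.17) but not in Pes1 (−0.44). Nop2 and Utp20 held CACGTG as well, 60 bases before and 37 bases after the start, with differences of less than 0.001 and of 0.046. A match of letters is a description and says nothing about whether MYC binds there in these cells.

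Other genes of the pathway were counted in the same way, with no test between lists. Among 47 further small subunit factors 37 differences were negative with a median of −0.052, and among 39 measured large subunit factors 26 were negative with a median of −0.034. In these lists limma called 0 genes over all genes, and 3 and 5 had an unadjusted p under 0.05, each with a negative difference, where 6.84% of all genes had one. Large subunit factors with the smallest p were the helicase Ddx54, with levels of 9.72, 9.59 and 9.50 in the floxed and of 9.05, 9.15 and 9.17 in the deleted samples (−0.48, limma adjusted p = 0.073), Nip7 (−0.43, adjusted p = 0.120) and Rrs1 (−0.49, adjusted p = 0.151). In each of these 3 genes, picked by their p, the deleted levels were all below the floxed. That was so in 8 of the 39 large and 7 of the 47 small subunit factors, and in 10% of all genes. Deleted levels were all above the floxed in 1 and 0 of them, and in 11.2% of all genes. Subunits and cofactors of the RNA exosome, which trims ribosomal RNA, had 12 of 13 negative differences and a median of −0.10. Limma called 0 of the 13, and 2 had an unadjusted p under 0.05. Each of these 2 had a negative difference, where 6.84% of all genes had one and 14.8% passed in either direction. Exosc9 was lowest in p (−0.41, limma adjusted p = 0.131).

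Among 14 other genes of RNA polymerase I transcription 10 were positive with a median of 0.029, and among 9 of snoRNP assembly 6 were positive with a median of 0.041. Of 44 ribosomal protein genes with a probe set of their own 33 were negative, the median was −0.015 and 0 had an unadjusted p under 0.05. In 12 other polyamine genes the median was 0.065, and Smox, the spermine oxidase, had the smallest p (0.66, limma adjusted p = 0.224). Limma called 0 genes in these 4 lists, where it called 0.781% of all genes. In them 0, 1, 0 and 1 genes had an unadjusted p under 0.05 (limma), where 14.8% of all genes had one.

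MYC targets outside ribosome biogenesis were evenly divided. Of 68 measured genes 34 had a positive and 34 a negative difference, the median was −0.001, limma called 0, and 5 positive and 8 negative ones had an unadjusted p under 0.05, where 7.96% and 6.84% of all genes did. In 18 of the 68 the groups did not overlap, 9 in each direction, beside 21.2% of all genes. Tfam, which maintains mitochondrial DNA, stood at 9.35, 9.62 and 9.49 in the floxed and at 9.15, 9.04 and 9.09 in the deleted samples (−0.39, limma adjusted p = 0.142). The mitochondrial chaperonin Hspd1 stood at 10.19, 9.80 and 10.03 and at 10.88, 10.36 and 10.57 (0.59, adjusted p = 0.155). Neither passed. Among MYC's partners and antagonists Max differed by −0.096 (limma adjusted p = 0.735). Its antagonists Mxi1 and Mnt differed by 0.76 (limma adjusted p = 0.060) and −0.33 (0.139).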

How the data were processed

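RNA of B cells from 6 mice, 3 per group, was measured on Affymetrix arrays. The deposited values are 1 intensity per probe set and array, made by the authors with RMA, per the submitters' processing notes, which name no version. Because the values span 2.96 to 17022 they were taken as linear, although RMA output is commonly log2, and were log2-transformed, with no further normalization or filter. Of 45101 probe sets 34958 had 1 gene symbol, 932 several and 9211 none, and only the first were named. Two-sided tests came from limma 3.58.1 (R 4.3.3) with moderated variances on 18193 genes with Benjamini-Hochberg adjustment. The p-values rest on the spread between 3 mice a group, and an exact permutation of 3 against 3 cannot give a p under 0.1. The members and lists were chosen with earlier results of these data known. Values in every sample are given for members with the smallest p, up to 12, and for the brightest member and the one with the largest difference of each role. In 20 simulated runs over 18193 genes with 200 changed genes each, the group comparison called 21.3% of the genes given a log2 change of 0.5, 73.9% at a change of 1 and 93.2% at 2. Alternatives covered normalization, a filter on dim genes, an offset, the choice of probe set, limma's moderation, sex, the replicate number as a block and leaving out each sample. Figures used matplotlib 3.10.9.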

Additional observations from a re-analysis of the deposited data

How the results depend on the processing

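In each of the 15 alternative fits 0 of the 33 members passed (limma), and the median member difference stayed within −0.057 and 0.038. Myc kept its direction in all 15; it lost the call with an offset of 16 (1.06, limma adjusted p = 0.054), with the replicate block (1.07, adjusted p = 0.053, with 126 genes called in place of 142), with sex as a term (1.03 at an adjusted p = 0.083) and without single samples, where it ran from 0.91 to 1.19, uncalled without floxed sample 1 and without each deleted sample; the cause was not tested. The count of called genes was 222 with trend and robust moderation, 37 with sex as a term, 449 at an adjusted p under 0.1, and 0 to 226 without single samples (0 without floxed sample 1, 140 without 2 and 226 without 3, and 16, 45 and 62 without deleted samples 1, 2 and 3). Without single samples 9 to 22 members were positive. The members' median Myc slope was 0.13 with group as a term. Of 16 named members 11 kept their sign throughout. With the mean of all probe sets Bop1 stood at −0.42, Dkc1 at −0.0021 and Npm1 at 0.021; with the most variable probe set Bop1 stood at −0.94 and Npm1 at 0.049; with sex as a term Dkc1 stood at −0.0040. Without single samples Dkc1 ran from −0.040 to 0.13, Npm1 from −0.034 to 0.034, Fbl from −0.14 to 0.022 and Rrp1b from −0.021 to 0.20; none of these was called. The replicate numbers did not pair the samples: deviations of same-numbered samples correlated at 0.033, 0.10 and 0.0059. A fit on the mean of several Myc probe sets was not run, as Myc has 1.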

Other observations

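The mean log2 level of 15 proliferation markers was 6.03, 5.78 and 7.32 in floxed samples 1, 2 and 3 and 6.11, 6.20 and 6.82 in deleted samples 1, 2 and 3. It was highest in floxed sample 3, where the members were low (median deviation −0.066), and next highest in deleted sample 3, where they were high (0.078). It was lowest in floxed sample 2, where the members were low too (−0.060). Mki67, a marker of cycling cells, stood at 6.31, 6.06 and 8.87 in floxed samples 1, 2 and 3 and at 7.07, 7.24 and 7.85 in deleted samples 1, 2 and 3. Top2a, the topoisomerase of dividing cells, was likewise highest in floxed sample 3, at 8.32 against 6.14 to 7.71 elsewhere. Of the 15 markers limma called 0 between the groups and 0 had an unadjusted p under 0.05, against 0.781% and 14.8% of all genes. Of their differences 8 were positive.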
